A study of Mus musculus with 9 samples.

Results

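The smooth muscle contractile apparatus was followed here through 35 named genes, all of which were measured among the 16594 genes tested on the arrays. The genes were taken as a list of names, chosen with earlier results of these data known, and each was read from its brightest probe. They comprised 4 genes of myosin and its kinase, 9 of actin and the thin filament, 4 regulators of myosin phosphatase and the calcium pump, 9 of desmin, dense bodies and Z-disc type proteins, 5 of adhesion plaques, 3 of the dystrophin complex, and the RNA-binding protein gene Rbpms. The samples were abdominal aortas of uMT mice on the C57BL/6 strain, a line without B cells. Every group carried that genotype, so no B cell-sufficient animal stands beside them. In the CaCl2 plus IgG group, mice had 0.5 M CaCl2 laid around the aorta and mouse polyclonal IgG injected into the peritoneum. The CaCl2 group had the same CaCl2 application without IgG, and the sham group had physiological saline around the aorta. The CaCl2 application is a way to induce an abdominal aortic aneurysm in mice, and tissue was taken at day 7 after it. Each group had 3 arrays with 1 sample each. The sources used here give no age, no IgG dose, no sampling day for sham mice, and no statement on whether an array held 1 animal or several, so the p-values cover no more than the spread among these arrays.

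In vascular smooth muscle, force comes from smooth muscle myosin pulling on filaments of smooth muscle actin. Calcium and calmodulin switch on myosin light chain kinase, and myosin phosphatase takes the phosphate off again. Actin filaments are anchored in dense bodies inside the cell and in adhesion plaques at the membrane, and many genes of this apparatus are driven by serum response factor together with its coactivator myocardin. These genes are markers of the contractile state of the cell.

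Levels below are log2 of a probe's signal over the 75th percentile of signals on the same array, so 0 marks that percentile and 1 unit is a doubling. That percentile ranged over 270 to 455 intensity units with CaCl2 plus IgG, 381 to 496 with CaCl2 and 267 to 302 in sham. The share of probes well above background was 54.9% to 59.9%, and 0 spots were saturated. All 35 probes used for the members were well above background on all 9 arrays. Replicate 3 of the CaCl2 plus IgG group stood apart: it correlated at 0.959 on average with the rest of its group, and its second principal component score (11.9% of variance) was -75.1, against 0.755 to 15.9 on the other 8 arrays. On the first component (69% of variance) it scored 2, between the other CaCl2-treated arrays (33.2 to 70.8) and the sham arrays (-104 to -78.9). The members' counts and medians, and the calls of several other lists, are also given without it. Of 8 further genes that mark vascular smooth muscle, 7 were measurable, and all 7 were well above background on every array. Against 16594 genes tested, 14705 had a probe well above background on all 9 arrays. The presence of these 7 is therefore a weak check of the tissue label. Casq2 was not well above background throughout any group and was not tested.

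Of the 35 members, 34 fell after CaCl2 and 34 fell after CaCl2 plus IgG, each against sham (limma, adjusted p under 0.05). The exception in both was the phospholamban gene Pln. Over all genes tested, 19.1% were lower in CaCl2 than in sham and 14.1% were lower in CaCl2 plus IgG than in sham. The members' median log2 difference was -1.80 in CaCl2 minus sham and -1.86 in CaCl2 plus IgG minus sham, whereas the median of all genes was -0.08 and -0.10 in these comparisons. At least a 2-fold fall was seen for 33 members in each, and at least a 4-fold fall for 11 members after CaCl2 and 14 after CaCl2 plus IgG. The same 3 sham arrays serve both comparisons, which are therefore not independent of each other. In both, 34 members had every treated array below every sham array, against 32% of all genes for CaCl2 and 23.9% for CaCl2 plus IgG. Between CaCl2 plus IgG and CaCl2, 0 of 35 members passed the test, as did 0% of all genes. With arrays scaled to their median, the median of all genes in CaCl2 minus sham was 0.39, the share of called genes that were higher was 76.9% in place of 47.5%, and 31 members were lower. For CaCl2 plus IgG minus sham that share was 71.7% in place of 50.9%, and 33 members were lower. In bulk tissue, fewer smooth muscle cells and less RNA per cell cannot be told apart.

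**Figure D1:**
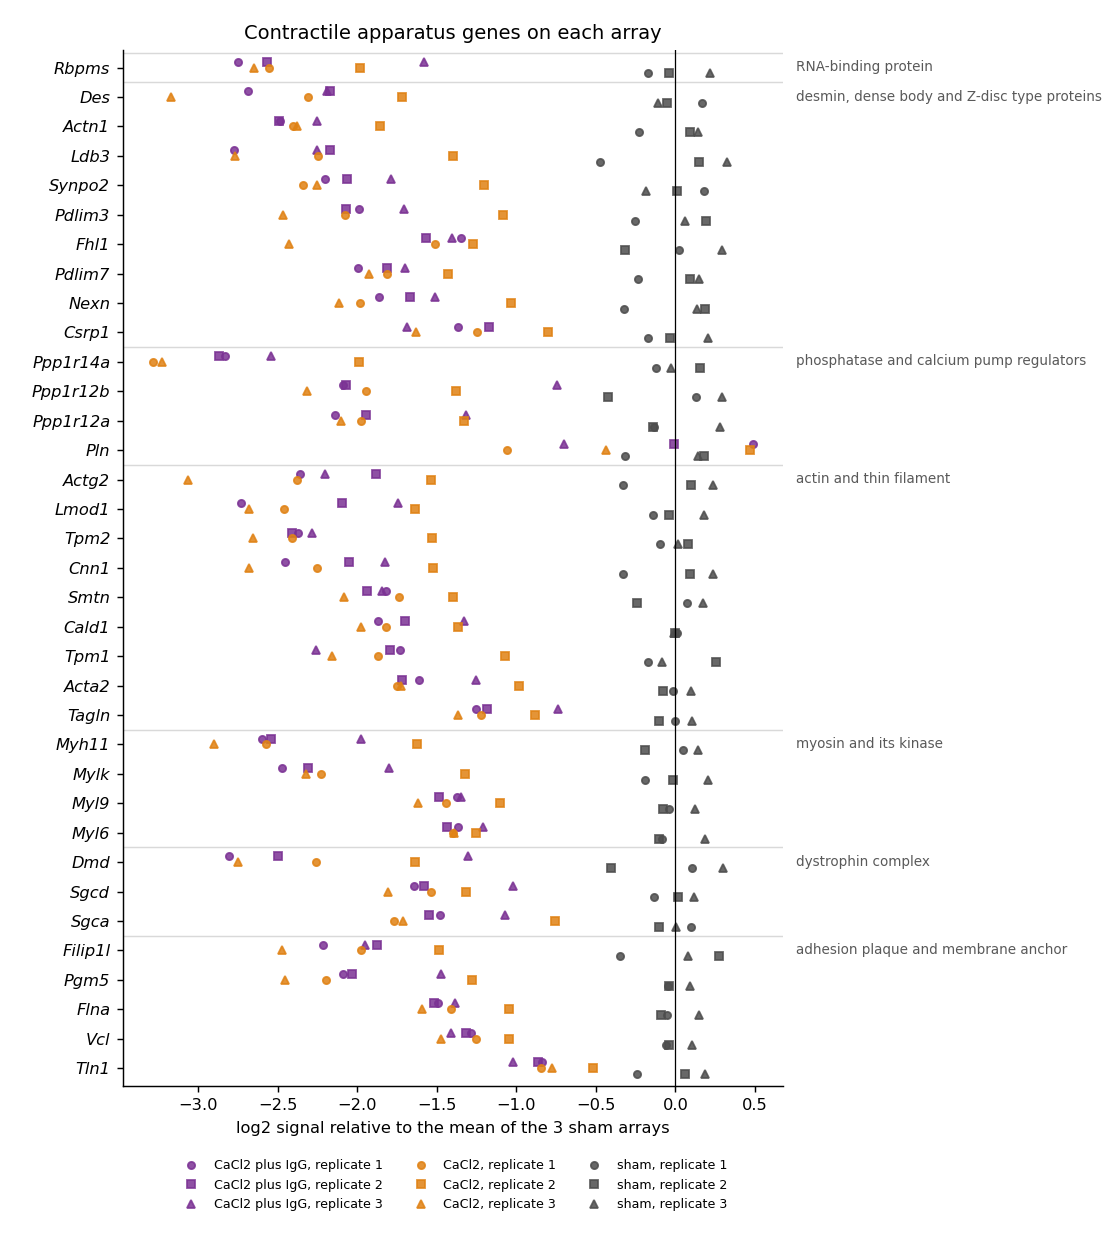
Log2 signal of each of the 35 members on each of the 9 arrays (x axis, relative to the mean of the 3 sham arrays), with genes grouped by role down the page. Purple points (CaCl2 plus IgG) and orange points (CaCl2) lie left of the grey sham points in every row but that of Pln, and the orange square of CaCl2 replicate 2 is the rightmost orange point in all 35 rows.

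Probes that carry the measurement are shown for 5 members, all with at least a 4-fold fall after CaCl2: Ppp1r14a, Des, Myh11, Actn1 and Tpm2. Each is 60 bases long, printed 5′ to 3′ from the scanner files with the mm9 coordinates given there. The intervals for Ppp1r14a, Des and Actn1 are longer than the probe itself.
Ppp1r14a, chr7:30076540-30076600, plus strand: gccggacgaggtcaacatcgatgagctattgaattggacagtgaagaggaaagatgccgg
Des, chr1:75363404-75363629, plus strand: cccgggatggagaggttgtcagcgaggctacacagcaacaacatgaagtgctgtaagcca
Myh11, chr16:14202190-14202249, minus strand: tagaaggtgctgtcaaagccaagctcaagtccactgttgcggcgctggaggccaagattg
Actn1, chr12:81269446-81269882, minus strand: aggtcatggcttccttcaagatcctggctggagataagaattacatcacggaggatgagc
Tpm2, chr4:43532262-43532321, minus strand: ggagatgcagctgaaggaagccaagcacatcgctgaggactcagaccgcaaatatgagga

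All 4 genes of myosin and its kinase fell, with a median log2 difference of -1.67 in CaCl2 minus sham and -1.80 in CaCl2 plus IgG minus sham. Myh11, the smooth muscle myosin heavy chain, had log2 levels of 4.26, 4.31 and 4.88 with CaCl2 plus IgG, 4.28, 5.23 and 3.96 with CaCl2, and 6.91, 6.67 and 7.00 in sham, in the order of replicates 1 to 3 as in all such lists. Every array of both CaCl2-treated groups was below every sham array by more than 1 log2 unit. The fitted log2 difference of Myh11 was -2.37 ± 0.32 in CaCl2 minus sham (SE, adjusted p = 0.00147), a 5.16-fold fall, and -2.38 ± 0.32 in CaCl2 plus IgG minus sham (adjusted p = 0.00156). Mylk, which encodes the kinase that phosphorylates the regulatory light chain, had levels of 1.51, 1.68 and 2.18 after CaCl2 plus IgG, 1.76, 2.66 and 1.67 after CaCl2, and 3.79, 3.97 and 4.19 in sham. Its groups did not overlap with sham, and the highest treated value was that of CaCl2 replicate 2. Mylk fell by 1.96 after CaCl2 (adjusted p = 0.0021) and by 2.19 after CaCl2 plus IgG (adjusted p = 0.00145). The light chains changed less in size: Myl9, the regulatory light chain, by -1.39 ± 0.16 and Myl6, the essential light chain, by -1.35 ± 0.13 in CaCl2 minus sham. Myl6 had the smallest spread of all members between CaCl2 arrays, with an SD of 0.08.

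The 9 thin filament genes all fell as well, with log2 differences of -2.32 to -1.16 after CaCl2 and -2.36 to -1.06 after CaCl2 plus IgG. Acta2, the smooth muscle actin of arteries, had log2 levels of 8.32, 8.21 and 8.68 with CaCl2 plus IgG, 8.19, 8.95 and 8.21 with CaCl2, and 9.92, 9.85 and 10.03 in sham. All 6 treated arrays were below the sham arrays, which differed among themselves by less than 0.2. The log2 difference of Acta2 was -1.49 ± 0.23 in CaCl2 minus sham (adjusted p = 0.00234), or 2.80-fold, and -1.53 ± 0.23 in CaCl2 plus IgG minus sham (adjusted p = 0.00229). Actg2, the actin best known from visceral smooth muscle, had levels of 3.64, 4.12 and 3.80 with CaCl2 plus IgG, 3.63, 4.47 and 2.94 with CaCl2, and 5.67, 6.10 and 6.24 in sham. The CaCl2 arrays of Actg2 spread more widely than the sham arrays (SD 0.77 and 0.30) and still stayed below them. Actg2 fell by 2.32 after CaCl2 (adjusted p = 0.00237) and by 2.15 after CaCl2 plus IgG (adjusted p = 0.0036).

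Among the proteins that ride on actin, Cnn1, the calponin that inhibits myosin's ATPase, had levels of 6.39, 6.79 and 7.01 after CaCl2 plus IgG, 6.59, 7.32 and 6.16 after CaCl2, and 8.51, 8.93 and 9.08 in sham. No treated array reached a sham array, and the fall was 4.45-fold after CaCl2 (log2 difference -2.15 ± 0.31, adjusted p = 0.00177). Lmod1, a leiomodin that starts new actin filaments, had levels of -1.07, -0.44 and -0.08 after CaCl2 plus IgG, -0.80, 0.02 and -1.02 after CaCl2, and 1.52, 1.62 and 1.84 in sham. It dropped under the 75th percentile on all treated arrays but CaCl2 replicate 2, where it lay just above it. Its log2 difference was -2.26 ± 0.32 in CaCl2 minus sham and -2.19 ± 0.32 in CaCl2 plus IgG minus sham. Tagln, or SM22 alpha, an actin-bundling protein much used as a smooth muscle marker, fell least of the 9. Its levels were 8.67, 8.74 and 9.19 with CaCl2 plus IgG, 8.71, 9.04 and 8.56 with CaCl2, and 9.92, 9.82 and 10.03 in sham, again with no overlap. The fall of Tagln was 2.23-fold after CaCl2 (adjusted p = 0.0028) and 2.09-fold after CaCl2 plus IgG (adjusted p = 0.00438). Smtn and Cald1, which encode the actin-binding proteins smoothelin and caldesmon, lay between, at -1.74 ± 0.19 and -1.72 ± 0.20 in CaCl2 minus sham.

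Both tropomyosin genes, whose proteins lie along the actin filament, fell. Tpm2 had levels of 5.51, 5.47 and 5.60 after CaCl2 plus IgG, 5.48, 6.36 and 5.23 after CaCl2, and 7.79, 7.97 and 7.91 in sham. The 3 CaCl2 plus IgG arrays lay within 0.2 of each other, and all treated arrays were more than 1 log2 unit below sham. Tpm1 had levels of 3.91, 3.85 and 3.38 after CaCl2 plus IgG, 3.77, 4.57 and 3.48 after CaCl2, and 5.47, 5.90 and 5.56 in sham, without overlap. In CaCl2 minus sham the log2 difference was -2.20 ± 0.26 for Tpm2 (adjusted p = 0.000925) and -1.70 ± 0.29 for Tpm1 (adjusted p = 0.00349).

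The gene with the largest fall of all members belonged to the phosphatase regulators. Ppp1r14a encodes CPI-17, an inhibitor of myosin phosphatase that keeps myosin phosphorylated once protein kinase C has acted on it. Its log2 levels were 3.07, 3.03 and 3.36 with CaCl2 plus IgG, 2.62, 3.91 and 2.67 with CaCl2, and 5.78, 6.05 and 5.87 in sham. Every treated array was below sham, and CaCl2 replicate 2 was the highest of the 6. The fitted difference of Ppp1r14a was -2.83 ± 0.32 in CaCl2 minus sham (adjusted p = 0.000856), a 7.13-fold fall, and -2.75 ± 0.32 in CaCl2 plus IgG minus sham (adjusted p = 0.000946).

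Ppp1r12a, the gene of the targeting subunit MYPT1 that brings phosphatase to myosin, had levels of 4.56, 4.76 and 5.38 after CaCl2 plus IgG, 4.72, 5.37 and 4.60 after CaCl2, and 6.56, 6.55 and 6.98 in sham. Its fall was 3.49-fold after CaCl2 (adjusted p = 0.00237), without overlap. Ppp1r12b, a related targeting subunit, had levels of -0.31, -0.29 and 1.03 with CaCl2 plus IgG, -0.17, 0.39 and -0.54 with CaCl2, and 1.90, 1.35 and 2.07 in sham. The value of CaCl2 plus IgG replicate 3 came within 0.4 of the lowest sham array, yet the groups did not overlap. The log2 difference of Ppp1r12b was -1.88 ± 0.40 in CaCl2 minus sham (adjusted p = 0.00916) and -1.63 ± 0.40 in CaCl2 plus IgG minus sham (adjusted p = 0.0183). Leaving out any of sham replicates 1 and 3 or CaCl2 plus IgG replicates 1 and 2 put that last adjusted p between 0.0547 and 0.065.

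Pln encodes phospholamban, which restrains the calcium pump of the sarcoplasmic reticulum. Its levels were -2.82, -3.32 and -4.01 after CaCl2 plus IgG, -4.37, -2.84 and -3.74 after CaCl2, and -3.63, -3.13 and -3.17 in sham. The groups overlapped, with the highest value in CaCl2 plus IgG replicate 1 and the lowest in CaCl2 replicate 1. The log2 difference of Pln was -0.34 in CaCl2 minus sham, with a 95% interval of -1.29 to 0.61 (adjusted p = 0.541), and -0.08 in CaCl2 plus IgG minus sham, with an interval of -1.03 to 0.88 (adjusted p = 0.901). Its sign turned with the scaling, to 0.13 and 0.16 when arrays were scaled to their median. The interval after CaCl2 takes in a fall as large as that of Tagln. The pump itself, Atp2a2 (SERCA2), was not a member and fell by 1.33 after CaCl2 (adjusted p = 0.000695).

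All 9 genes of desmin, dense bodies and Z-disc type proteins passed the test in both comparisons, with a median of -1.88 in CaCl2 minus sham and -1.92 in CaCl2 plus IgG minus sham. Des, the muscle intermediate filament that links dense bodies, had levels of 0.37, 0.89 and 0.87 with CaCl2 plus IgG, 0.75, 1.34 and -0.11 with CaCl2, and 3.22, 3.00 and 2.95 in sham. All treated arrays were below sham by more than 1 log2 unit, and the log2 difference was -2.40 ± 0.34 (adjusted p = 0.00163), a 5.27-fold fall after CaCl2. Actn1, an alpha-actinin that crosslinks actin in dense bodies and plaques, had levels of 1.58, 1.57 and 1.81 with CaCl2 plus IgG, 1.66, 2.21 and 1.69 with CaCl2, and 3.84, 4.16 and 4.21 in sham. It was among the most even of the large falls, and it had the smallest adjusted p of any member in both comparisons with sham, at -2.22 ± 0.19 after CaCl2 (adjusted p = 0.000351) and -2.41 ± 0.19 after CaCl2 plus IgG (adjusted p = 0.000323).

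Ldb3, Pdlim3 and Pdlim7 encode PDZ and LIM domain proteins of Z-discs and actin filaments, and they differed by -2.14, -1.88 and -1.72 in CaCl2 minus sham. The difference was -1.93 for Synpo2, an actin-bundling protein, -1.74 for Fhl1, a LIM-only protein, and -1.71 for Nexn, the actin-binding protein nexilin, and all of these passed the test. Csrp1, a LIM protein of the actin skeleton, fell least in this role. Its levels were 7.52, 7.72 and 7.20 with CaCl2 plus IgG, 7.64, 8.08 and 7.25 with CaCl2, and 8.71, 8.85 and 9.09 in sham, with no overlap. The log2 difference of Csrp1 was -1.23 ± 0.23 after CaCl2 (adjusted p = 0.00563) and -1.41 ± 0.23 after CaCl2 plus IgG (adjusted p = 0.00362). With arrays scaled to their median, the fall of Csrp1 after CaCl2 no longer passed, at -0.76 (adjusted p = 0.112).

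The dystrophin complex ties the cytoskeleton through the membrane to the matrix, and all 3 of its members fell. Dmd, the dystrophin gene, had levels of -0.10, 0.21 and 1.40 after CaCl2 plus IgG, 0.45, 1.07 and -0.04 after CaCl2, and 2.81, 2.31 and 3.01 in sham. The spread of Dmd between CaCl2 plus IgG arrays was the widest of any member, with an SD of 0.79 and replicate 3 above the others, but all stayed below sham. The log2 difference of Dmd was -2.22 ± 0.43 in CaCl2 minus sham (adjusted p = 0.00585) and -2.21 ± 0.43 in CaCl2 plus IgG minus sham (adjusted p = 0.00675). The sarcoglycans Sgcd and Sgca fell by 1.55 and 1.41 after CaCl2.

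The 5 adhesion plaque genes all fell, with a median of -1.35 in CaCl2 minus sham and -1.46 in CaCl2 plus IgG minus sham. Within them the depth ran from -1.98 ± 0.27 for Filip1l, a filamin-interacting protein, and -1.97 ± 0.30 for Pgm5, a plaque protein of the phosphoglucomutase family, over -1.35 ± 0.16 for the actin crosslinker Flna and -1.26 ± 0.14 for the vinculin gene Vcl, to Tln1. Tln1 encodes talin, which links integrins to actin in most cell types. Its levels were 5.87, 5.84 and 5.68 with CaCl2 plus IgG, 5.86, 6.18 and 5.93 with CaCl2, and 6.46, 6.76 and 6.89 in sham. The groups did not overlap with sham, but the closest arrays were less than 0.3 apart. Tln1 fell by 0.71 after CaCl2 (adjusted p = 0.00993) and by 0.91 after CaCl2 plus IgG (adjusted p = 0.0041), the smallest falls among the 34. Scaled to array medians, its differences were -0.24 (adjusted p = 0.537) and -0.67 (adjusted p = 0.14), and the fall of Vcl after CaCl2 was -0.79 (adjusted p = 0.0517).

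Rbpms, which encodes an RNA-binding protein that steers splicing in smooth muscle, had levels of 2.08, 2.26 and 3.25 after CaCl2 plus IgG, 2.27, 2.85 and 2.18 after CaCl2, and 4.66, 4.79 and 5.04 in sham. Replicate 3 was the highest CaCl2 plus IgG array, and both groups lay clear of sham. The fall of Rbpms was 5.26-fold after CaCl2 (adjusted p = 0.00133), and its 3 kept probes changed by -2.15 to -2.39.

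Ranked by depth after CaCl2, the members ran from -2.83 for Ppp1r14a to -0.34 for Pln. Of the 34 pairs of neighbours in that order, 1 pair (Tagln and Tln1) was separated by more than the combined SE of both genes. In CaCl2 plus IgG minus sham it was 2 pairs of 34, Myl6 with Tagln and Tln1 with Pln. Neighbours lie close through the sorting itself, and the combined SE takes no account of the arrays that genes share. These counts therefore do not test whether the order is gradual or stepped. The 95% interval of Ppp1r14a (-3.57 to -2.10) lay below those of Acta2 (-2.01 to -0.97), Tagln (-1.58 to -0.73) and Tln1 (-1.07 to -0.36). Ppp1r14a was picked here as the first of the ranking and shares its arrays with the others, so this is not a test of a difference. The ranges of the roles overlapped. That of the phosphatase and calcium pump regulators, -2.83 to -0.34, took in both ends of the ranking. Myosin and its kinase ran from -2.37 to -1.35, the thin filament from -2.32 to -1.16, and desmin and dense bodies from -2.40 to -1.23. The dystrophin complex ran from -2.22 to -1.41 and adhesion plaques from -1.98 to -0.71. The brightest members, Tagln, Myl9 and Acta2 (mean log2 levels 9.19, 8.94 and 8.93), changed by -1.16, -1.39 and -1.49. Against that order, Cnn1 at a mean level of 7.42 changed by -2.15, and Pln at -3.45 by -0.34. The part of signal level in the depth of a fall was not tested.

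**Figure D2:**
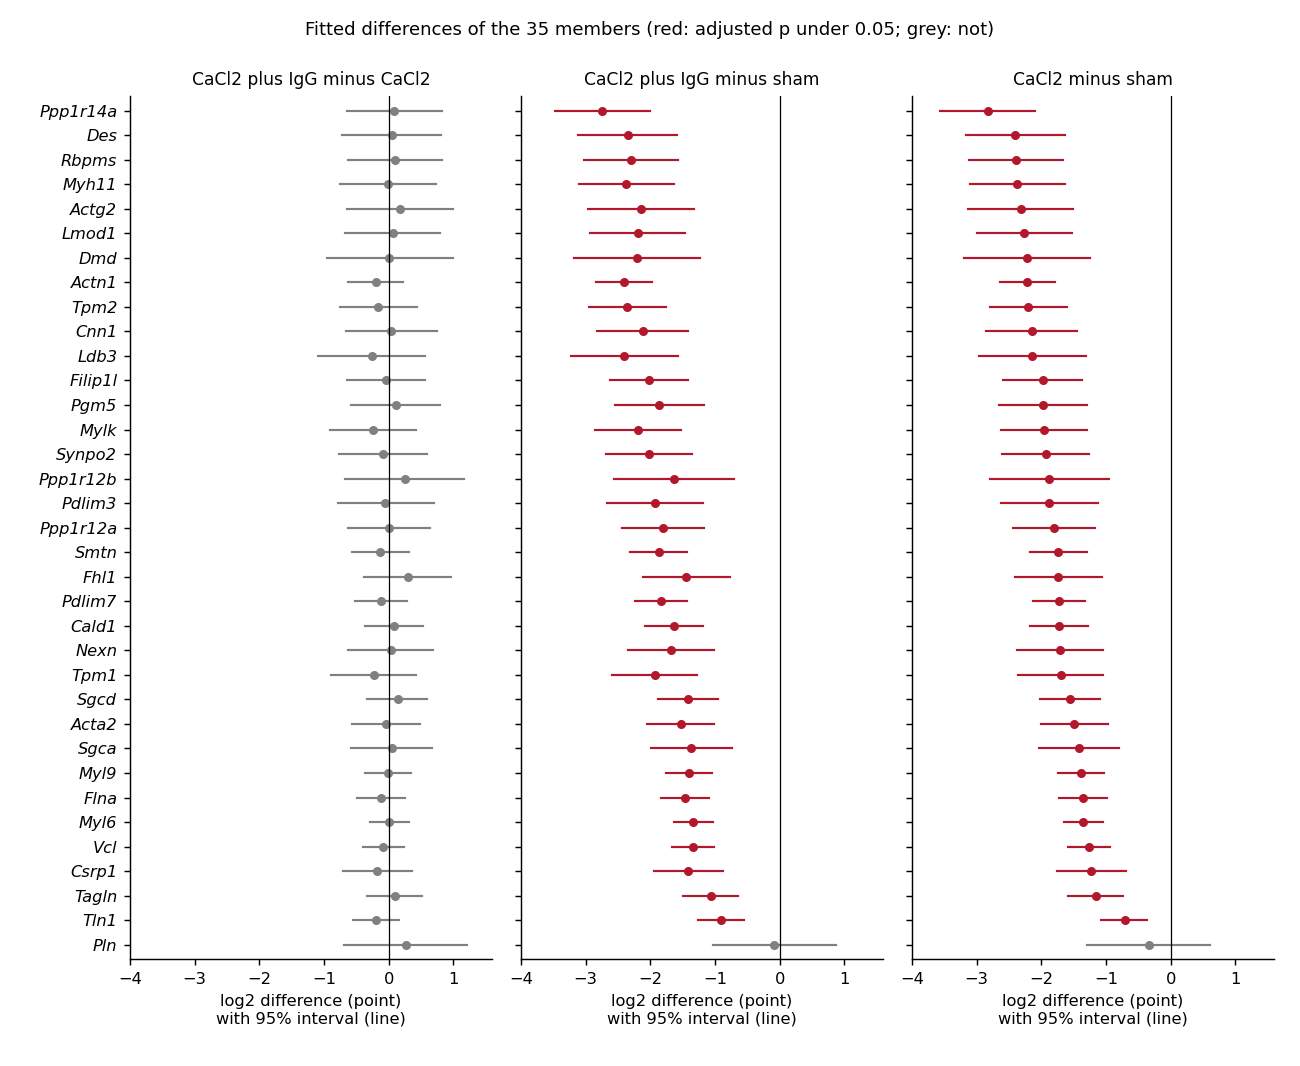
Fitted log2 differences (points) with 95% intervals (lines) for the 35 members, in CaCl2 plus IgG minus CaCl2 (left), CaCl2 plus IgG minus sham (middle) and CaCl2 minus sham (right), ordered by the last. Red marks an adjusted p under 0.05: 34 members in the middle and right panels and 0 in the left panel, where every interval spans 0.

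Whether related members fell to different depths was asked of 8 pairs within each array, in 24 exact two-sided permutation tests. With 3 arrays against 3, such a test cannot give a p below 0.10, so none could pass 0.05. Myh11 relative to Acta2 changed by -0.88 log2 units in CaCl2 minus sham and by -0.85 in CaCl2 plus IgG minus sham, without overlap in either (exact p = 0.10 and adjusted p = 0.40 for each). Myh11 thus lay further below its sham level than Acta2 on all 6 treated arrays. Relative to Ppp1r12b, Ppp1r14a changed by -0.95 and -1.11 in these comparisons, also without overlap (exact p = 0.10, adjusted p = 0.40). Actg2 relative to Acta2 changed by -0.84, and Tpm2 relative to Tpm1 by -0.50, in CaCl2 minus sham without overlap (exact p = 0.10, adjusted p = 0.40), while for CaCl2 plus IgG the groups overlapped. With the mean of kept probes, Tpm2 relative to Tpm1 changed by -1.09 after CaCl2 and -1.17 after CaCl2 plus IgG. The other pairs, Ppp1r12b to Ppp1r12a, Myl9 to Myl6, Pdlim3 to Pdlim7 and Sgca to Sgcd, overlapped with sham in both, with changes of -0.15 to 0.17, and Ppp1r12b relative to Ppp1r12a reached 0.28 and 0.60 with the mean of kept probes.

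The depth of a fall also depended on the probe. The members had 68 probes, 64 of which were kept, and 18 members had several kept probes. In CaCl2 minus sham all 64 differences were negative and 60 passed the test over all kept probes with a symbol. Besides the Pln probe, the probes that did not pass were those of Tpm1 at -0.19 (adjusted p = 0.644), Ppp1r12b at -0.30 (adjusted p = 0.577) and Pgm5 at -1.0 (adjusted p = 0.0766). Pgm5 had kept probes starting at bases 624, 2826 and 7707 of its transcript, and these changed by -3.14, -1.97 and -1.0. Those of Synpo2 at bases 3168, 4399 and 7034 changed by -3.07, -3.11 and -1.93, and those of Vcl at bases 3009 and 4438 by -2.28 and -1.26. In these 3 genes the probe nearest the 3′ end showed the smallest change, whereas the Ppp1r12b probe at base 379 showed the smallest change of that gene. Probes on the same transcript of other members went both ways. Those of Dmd at bases 450, 4942 and 10335 changed by -2.43, -2.22 and -1.65. The probe nearer the 3′ end changed more in Pdlim7 (-2.29 against -1.72), Ppp1r12a (-2.04 against -1.8) and Myl6 (-1.35 against -1.16). The 6 kept Tpm1 probes spread from -1.91 to -0.19, and the files name several transcripts for them. At the even end, the kept probes of Tpm2, Sgcd, Cald1 and Mylk differed by at most 0.13.

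**Figure D3:**
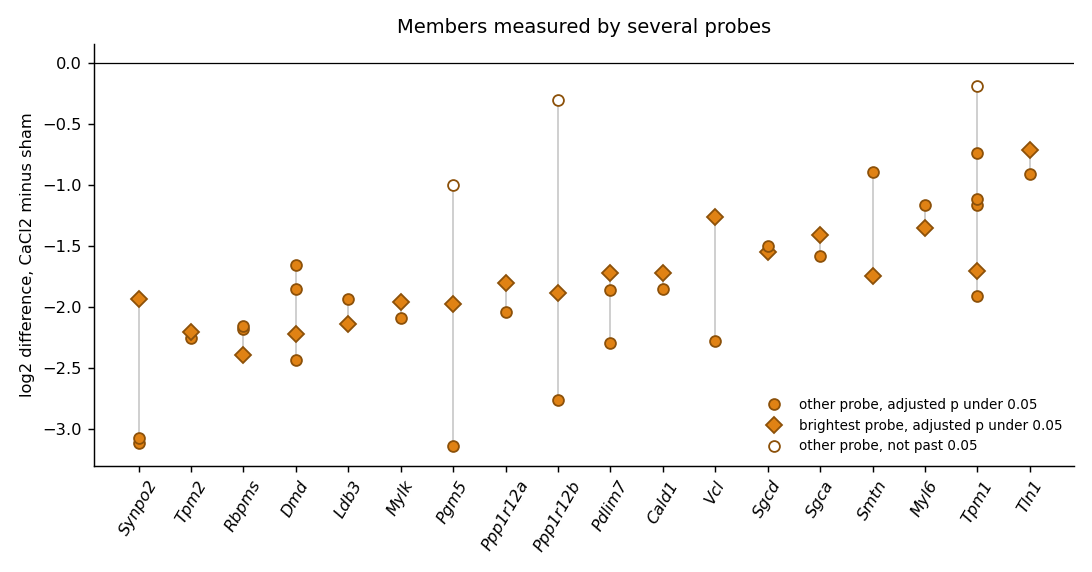
Log2 difference in CaCl2 minus sham (y axis) for each kept probe of the 18 members with several, diamonds marking the brightest probe. All points lie below 0; the 3 open circles (Pgm5, Ppp1r12b, Tpm1) did not pass the test, and the spread reaches 2.46 log2 units in Ppp1r12b and 2.14 in Pgm5.

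The arrays of a group moved up and down together across members. CaCl2 replicate 2 was the highest of the 3 CaCl2 arrays for 35 of 35 members, with a median level of -1.32 relative to the sham mean, against -1.97 for replicate 1 and -2.25 for replicate 3. CaCl2 plus IgG replicate 3 was the highest of its group for 24 members, with a median of -1.58, against -1.99 and -1.88. Among the sham arrays, replicate 3 was the highest for 24 members, at a median of 0.14. The median SD of a member was 0.26 between CaCl2 plus IgG arrays, 0.55 between CaCl2 arrays and 0.20 between sham arrays. On CaCl2 replicate 2, white adipocyte markers (7 of 8 measurable) summed to 131 times the array's 75th percentile signal, against 48.9 and 49.8 on the other CaCl2 arrays, and the part of such tissue in its member levels was not tested. Without CaCl2 replicate 2 the members' median was -2.05 in CaCl2 minus sham and 34 were still lower. Without CaCl2 plus IgG replicate 3 the median was -2.03 in CaCl2 plus IgG minus sham, and again 34 were lower. Of those 34, Ppp1r12b moved most, to -2.08 (adjusted p = 0.00196), then Dmd, to -2.65 (adjusted p = 0.00126), while Myh11 was at -2.57 and Ppp1r14a at -2.85.

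Whether added IgG altered the apparatus was asked by setting CaCl2 plus IgG against CaCl2. In CaCl2 plus IgG minus CaCl2, 0 of 35 members passed the limma test, 0 reached an unadjusted p under 0.05, and their log2 differences ran from -0.26 for Ldb3 to 0.30 for Fhl1 with a median of 0.00. Over all 16594 genes 0 were called, and 249 genes, or 1.5%, had an unadjusted p under 0.05. Without CaCl2 plus IgG replicate 3, 0 members were called as well. The interval bounds show what was not resolved: they were narrowest for Myl6, at -0.29 to 0.32, were -0.56 to 0.48 for Acta2 and -0.75 to 0.73 for Myh11, and were widest for Dmd, at -0.96 to 0.99. The direction of the small remaining differences rested on single arrays. Of the 35, 17 were negative with all arrays, 2 without CaCl2 replicate 2 and 32 without CaCl2 replicate 3 or without CaCl2 plus IgG replicate 3.

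Relatives of the members from the same protein families fell more often than they rose. Many of them are made in non-muscle cells, and Acta1, Actc1 and Flnc in striated muscle, but the list was not confined to these. Of 23 such counterparts, 11 fell, 3 rose and 9 did not pass in CaCl2 minus sham, with a median log2 difference of -0.37, against -1.80 for the members. Over all genes 19.1% were lower and 17.3% higher in CaCl2 than in sham, and 14.1% and 14.6% in CaCl2 plus IgG than in sham. With all arrays, the counterparts that rose were no larger a share of their list. Those that fell were a larger one, at 47.8% and 39.1%. Tpm3 and Tpm4, the tropomyosins of non-muscle cells, rose by 0.93 (adjusted p = 0.0112) and 0.61 (adjusted p = 0.0361). Tpm3 had levels of 6.40, 6.49 and 6.00 with CaCl2 plus IgG, 6.64, 6.28 and 6.88 with CaCl2, and 5.44, 5.89 and 5.69 in sham, so all treated arrays were above sham while those of Tpm1 and Tpm2 were below it. After CaCl2 plus IgG, Tpm3 was 0.63 above sham and did not pass (adjusted p = 0.0552), but without replicate 3 of that group it was 0.77 above and passed (adjusted p = 0.0226). Over the list, 9 fell and 2 rose after CaCl2 plus IgG, and 10 and 4 without that array. Tln2, the second talin, rose by 0.64 (adjusted p = 0.0254). The non-muscle myosin Myh9 was 0.14 above sham (adjusted p = 0.466) while Myh10 fell by 1.04 (adjusted p = 0.00483), and the light chains Myl12a and Myl12b differed by -0.01 and -0.05 (adjusted p = 0.97 and 0.797). The falls with the smallest adjusted p in the list were those of Acta1 (-2.48), the skeletal actin, Pdlim1 (-1.28), Actn4 (-1.30) and Flnc (-1.45). Csrp2, a relative of Csrp1, was also below sham on every treated array. Its levels were 6.07, 6.08 and 6.64 with CaCl2 plus IgG, 6.15, 7.01 and 5.87 with CaCl2, and 7.95, 8.25 and 8.10 in sham. Scaling to array medians left 5 lower and 3 higher, and turned the sign of the vimentin gene Vim, -0.37 with adjusted p = 0.0343, to 0.10. The fall of the cytoplasmic actin gene Actb, -0.57 with adjusted p = 0.0352, did not pass with median scaling, quantile normalization or the authors' series table.

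**Figure D4:**
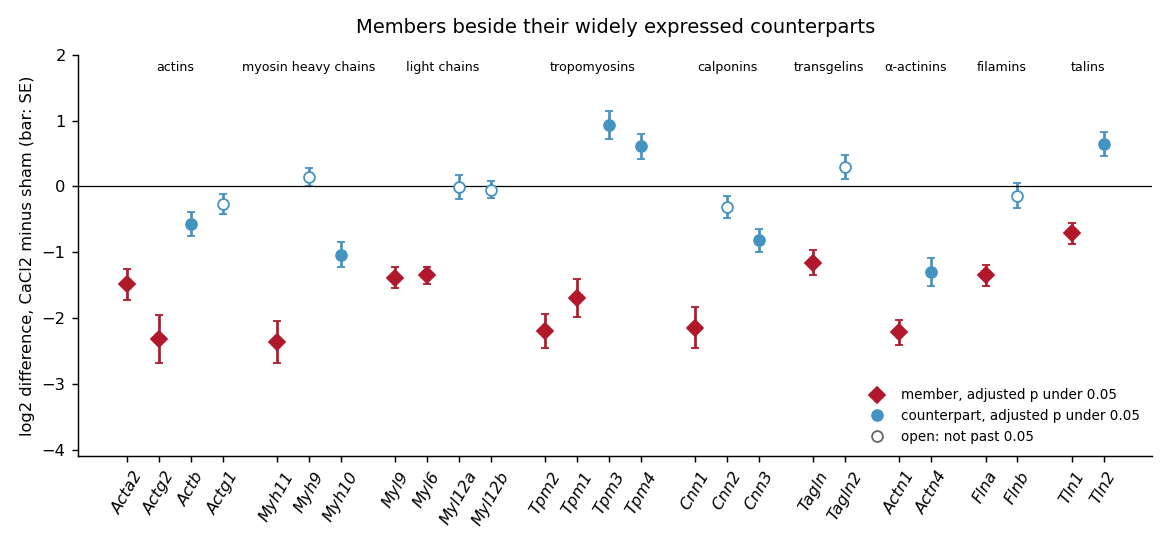
Log2 difference in CaCl2 minus sham with its SE (y axis) for members (red diamonds) beside widely expressed counterparts (blue circles), by protein family; open symbols did not pass an adjusted p of 0.05. Each member lies below 0, whereas Tpm3, Tpm4 and Tln2 lie above it and Myl12a and Myl12b at it. The counterparts Actn4, Myh10, Cnn3 and Actb also lie below 0 and passed.

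Partners in contraction signalling were read in the same way. Of 20 measured, 13 fell, 1 rose and 6 did not pass after CaCl2, with a median of -1.07, and the count after CaCl2 plus IgG was 12, 1 and 7, with or without replicate 3. Among them were Prkg1, the cyclic GMP kinase that relaxes smooth muscle (-1.64, adjusted p = 0.000683), Itpr1, the calcium release channel (-1.10, adjusted p = 0.000837), and Kcnmb1, the beta subunit of the large potassium channel (-1.96, adjusted p = 0.00084). Arhgap42, which encodes a GTPase-activating protein that lowers contractility, rose by 0.99 after CaCl2 (adjusted p = 0.0122) and by 1.07 after CaCl2 plus IgG (adjusted p = 0.0102). With median scaling the count was 7 lower and 2 higher.

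Of 28 further genes of adhesion plaques and the dystrophin complex, 20 fell and 0 rose in each comparison with sham, with medians of -0.98 after CaCl2 and -0.96 after CaCl2 plus IgG. Cav1, the caveolin, fell by 1.51 (adjusted p = 0.000818), Zyx, the plaque protein zyxin, by 1.47 (adjusted p = 0.000918) and Fermt2, the integrin activator kindlin, by 1.37 (adjusted p = 0.0013), all in CaCl2 minus sham. The sarcoglycans Sgcb and Sgce, found in many tissues, differed by -0.20 and -0.23 and did not pass (adjusted p = 0.431 and 0.463). With median scaling 11 of the 28 were lower and 1 was higher, and Dag1 and Sspn turned sign, to 0.02 and 0.04.

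Of 12 regulators of contractile genes, 4 fell and 1 rose after CaCl2. Myocd, the gene of myocardin, had levels of -0.32, 0.24 and 1.49 with CaCl2 plus IgG, 0.26, 1.08 and -0.35 with CaCl2, and 2.95, 3.19 and 3.33 in sham. The treated groups were both clear of sham, and within each the highest array was the same as for most members, CaCl2 replicate 2 and CaCl2 plus IgG replicate 3. The fall of Myocd was 2.82 ± 0.48 log2 units after CaCl2 (adjusted p = 0.00371) and 2.69 ± 0.48 after CaCl2 plus IgG (adjusted p = 0.00501), as deep as that of the deepest members. Srf, serum response factor, had levels of 1.42, 1.53 and 1.24 with CaCl2 plus IgG, 1.62, 1.86 and 1.64 with CaCl2, and 2.61, 2.72 and 2.60 in sham. It fell by 0.94 after CaCl2 (adjusted p = 0.00168) and by 1.24 after CaCl2 plus IgG (adjusted p = 0.000722), but scaled to array medians its fall after CaCl2 was -0.46 (adjusted p = 0.241). Nkx3-2, a homeobox factor, fell by 1.27 (adjusted p = 0.0102) and the MADS-box factor Mef2c by 0.50 (adjusted p = 0.0418), the last under this scaling only. Mrtfa, a myocardin-related factor that carries actin signals to serum response factor, rose by 0.72 (adjusted p = 0.0108). Klf4, a repressor of contractile genes, was 0.92 above sham and did not pass (adjusted p = 0.176).

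Serum response factor binds the CArG box, which is CC, then 6 bases that are each A or T, then GG. The pattern reads alike on both strands, and both were searched. Promoter windows from RefSeq (GRCm38.p6, 250 bases before to 50 after the transcription start) were found for 30 of 35 members, and Rbpms, Tagln, Myh11, Actg2 and Nexn had none. A CArG box lay in a window of 7 of these 30 genes, or 23.3%, against 1.81% of all 27025 genes and 1.63% of all 32851 windows. The boxes are shown in capitals within 20 bases on each side, read along the strand of the gene.
Vcl, chr14:20929151-20929200, plus strand: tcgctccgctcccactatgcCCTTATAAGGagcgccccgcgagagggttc
Filip1l, chr16:57549160-57549209, plus strand: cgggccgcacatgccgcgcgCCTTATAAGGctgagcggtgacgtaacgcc
Myl9, chr2:156775283-156775332, plus strand: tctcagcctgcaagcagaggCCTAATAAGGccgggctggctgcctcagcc
Myl6, chr10:128493030-128493079, minus strand: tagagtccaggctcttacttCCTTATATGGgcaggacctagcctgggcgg
Ldb3, chr14:34588687-34588736, minus strand: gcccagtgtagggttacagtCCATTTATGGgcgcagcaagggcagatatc
Fhl1, chrX:56779561-56779610, plus strand: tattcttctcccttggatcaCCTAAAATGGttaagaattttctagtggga
Dmd, chrX:82948752-82948801, plus strand: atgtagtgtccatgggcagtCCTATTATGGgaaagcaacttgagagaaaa

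The Vcl and Filip1l boxes have the same 10 bases and start 227 and 62 bases before their transcription starts. Those of Myl9, Myl6, Fhl1 and Dmd start 161, 50, 102 and 98 bases before, and that of Ldb3 35 or 109 bases before, depending on which of its annotated starts is taken. The 7 genes with a box had log2 differences of -2.22 to -1.26 after CaCl2, which is inside the range of the members without an exact match, and Pln had no box in its window. Only exact matches inside these windows were searched. A member without a match, such as Acta2, may still have a box that departs from the pattern or lies elsewhere. The MCAT element, CATTCC on either strand, which TEAD factors bind, lay in the windows of 11 of the 30 genes, or 36.7%, against 16.6% of all genes, and shared Vcl with the CArG set. It is shown for Acta2, where it reads GGAATG on the strand of the gene and starts 146 bases before the transcription start.
Acta2, chr19:34255494-34255539, minus strand: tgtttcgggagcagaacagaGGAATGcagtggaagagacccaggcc

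Markers of other cell types moved in the same arrays, in lists of genes summed as multiples of each array's 75th percentile signal. The 7 vascular smooth muscle markers outside the members all fell after CaCl2, with a median of -1.96, and summed to 46.3 to 63.0 with CaCl2 plus IgG, 44.0 to 82.6 with CaCl2 and 190 to 222 in sham. Map3k7cl (-3.15) and Npnt (-2.38) were among them, and 3 of the 7, Kcnmb1, Itga8 and Myocd, also stand in lists above. Of 10 measurable skeletal muscle markers out of 15, 6 fell and 1, Tnni2, rose after CaCl2 (4 and 1 with median scaling). Among the 6 was Casq1, which passed the filter only through the sham group. It was well above background on 3 sham arrays but on only 1 array of each treated group. The 10 markers summed to 9.83 to 10.5 with CaCl2 plus IgG, 7.48 to 16.6 with CaCl2 and 43.7 to 55.5 in sham. Acta1 alone made up 79.2% to 80.7%, 75.2% to 86.7% and 92.1% to 94.2% of these sums in CaCl2 plus IgG, CaCl2 and sham, and the other 9 summed to 2.01 to 2.20, 1.85 to 2.21 and 3.21 to 3.45. The defining fibre genes Myh1, Myh2, Myh4, Ckm and Mylpf were not well above background throughout any group. Des, Ldb3, Pdlim3, Sgca and Dmd are also made in skeletal muscle, and the part of skeletal muscle in their falls was not tested. Pericyte markers (3 of 7 lower, 0 higher) summed to 75.8 to 86.3, 75.5 to 98.7 and 181 to 197 in CaCl2 plus IgG, CaCl2 and sham. Of 10 leukocyte markers 8 rose, among them Cd14 by 3.32 and Ptprc by 2.88, and 1, Itgam, fell by 1.35, with a median of 2.34 over the list. They summed to 314 to 431, 293 to 364 and 234 to 246 in CaCl2 plus IgG, CaCl2 and sham. Itgam made up 62.1% to 86.0% of the sum in sham, and the other 9 summed to 236 to 274, 249 to 280 and 32.6 to 93.1. Fibroblast markers rose in 6 of 10, among them Fap by 2.52 and Lum by 1.79, and summed to 1620 to 1960, 1490 to 1720 and 1080 to 1260. Of 8 endothelial markers, 2 fell and 1 rose (0 and 1 with median scaling), with sums of 92.6 to 129, 98.3 to 121 and 118 to 132. Vwf, which fell, made up 54.6% to 61.7% of the sum in sham. The other 7 summed to 47.2 to 82.9, 60.2 to 77.8 and 47.3 to 53.6. Of 7 white adipocyte markers, 0 fell and 2 rose after CaCl2, while 4 fell after CaCl2 plus IgG (0 without its replicate 3). They summed to 28.0 to 80.6, 48.9 to 131 and 70.9 to 196. Cfd made up 64.6% to 73.7% of the sum in sham, and the other 6 summed to 17.1 to 37.4, 28.8 to 51.1 and 19.9 to 51.7. Some calls in CaCl2 plus IgG minus sham changed without replicate 3 of that group. Endothelial markers went from 2 lower and 1 higher to 2 and 3, and pericyte markers from 2 and 0 to 3 and 2. Skeletal muscle markers went from 5 and 1 to 7 and 1, and leukocyte markers from 0 and 8 to 1 and 8. Fibroblast markers stayed at 0 and 6. The part of these other cell types in the members' falls was not tested.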

How the data were processed

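RNA of 9 abdominal aorta samples was hybridised to 1-colour Agilent arrays. The labels give 1 purification kit for all 9 and the series' design text another. Slide and position were taken from the names of the scanner files. Per the file headers, the deposited scanner files hold spot intensity made with Feature Extraction 10.7.1.1, with spatial detrending; the submitters' processing notes name version 9.5.1.1. The authors' deposited series table, also intensity, served as an alternative. For each array, log2 of the processed signal was taken and the 75th percentile over non-control spots subtracted. Outlier spots were left out and spots of 1 probe averaged. Probes had to be well above background throughout 1 group or more, which kept 32168 of 55681, and the brightest kept probe stood for a gene. In 5 genes an array value was missing. The test was limma (version 3.58.1, lmFit and eBayes, under R 4.3.3, 6 residual degrees of freedom), with Benjamini-Hochberg adjustment over 16594 genes and a threshold of 0.05. Intervals are at 95%. Pair differences used exact permutation tests in scipy 1.17.1, adjusted over 24. The fit was tested on simulated data.

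Values on all arrays are given for the 8 largest and 4 smallest changes and for 7 other listed members; of each other list, up to 4 genes by smallest adjusted p, those going against the rest, Myocd and Srf. Some genes that this rule takes are not reported here. Other genes were added for contrast after their values were seen. The members and lists were chosen with earlier results of these data known. Alternatives were other scalings, background correction, filters, probe means, blocks and fits without 1 array. List counts without CaCl2 plus IgG replicate 3, and marker sums without the brightest gene, were added after seeing the data. Precision is limited by the number of arrays. Columns not mapped to a sample numbered 0.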

Additional observations from a re-analysis of the deposited data

How the results depend on the processing

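The members' falls were recomputed under 19 other settings: 3 scalings (array median, quantile, the authors' deposited series table), normexp background correction, 2 other filters, the mean of kept probes, 3 blocks and 9 fits each without 1 array. In CaCl2 minus sham 34 of 35 members were lower in all of them except median scaling (31), and in CaCl2 plus IgG minus sham 33 or 34 were. Besides Pln, the 33 lacked Tln1 under median scaling and Ppp1r12b with slide as a block (-1.49, adjusted p = 0.0634) or without sham replicate 1 or 3 or CaCl2 plus IgG replicate 1 or 2. Between CaCl2 plus IgG and CaCl2, 0 members were called in all of them. Median scaling moved the median of all genes in CaCl2 minus sham to 0.39 and the members' median to -1.33, and the share of called genes that were higher to 76.9% from 47.5% (to 71.7% from 50.9% for CaCl2 plus IgG minus sham); relative to all genes the members' median stayed at -1.72. Without the filter the share for CaCl2 was 32.5%. Genes called lower in CaCl2 minus sham numbered 3170, against 1100 with median scaling, 5796 with no filter, 1511 with slide row as a block (3374 called in all, against 6043), 1739 with slide as a block (3886 called), and 2036, 1890 and 1901 without sham replicate 2, CaCl2 replicate 1 and CaCl2 replicate 3. Genes called lower in CaCl2 plus IgG minus sham numbered 2342, against 852 with median scaling (3007 called, against 4771), 1414 with slide as a block, 1426 without sham replicate 2, and 1331 (2998 called) and 3683 without CaCl2 plus IgG replicates 2 and 3. Between CaCl2 plus IgG and CaCl2, 2 genes were called without CaCl2 plus IgG replicate 1.

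Leaving out 1 array gave 34 members lower for CaCl2 throughout, medians of -2.05 to -1.62, and 33 to 34 for CaCl2 plus IgG with medians of -2.03 to -1.76; in CaCl2 plus IgG minus CaCl2 the median ran from -0.19 to 0.26. Pln turned sign: 0.13 and 0.16 against sham with median scaling, 0.18 and 0.14 (and -0.04 against CaCl2) with quantile normalization and the series table, and, leaving out 1 array, -0.75 to 0.02 in CaCl2 minus sham, -0.36 to 0.24 in CaCl2 plus IgG minus sham (0.01 without sham replicate 2) and -0.09 to 0.67 in CaCl2 plus IgG minus CaCl2 (-0.02 without CaCl2 plus IgG replicate 1). In that last comparison Ldb3 ran from -0.58 to 0.11 and Fhl1 from -0.05 to 0.53. With the mean of kept probes, Tpm2 relative to Tpm1 changed by -1.09 and -1.17, Ppp1r12b relative to Ppp1r12a by 0.28 and 0.60, and, in CaCl2 plus IgG minus sham, Myl9 relative to Myl6 by -0.22 and Pdlim3 relative to Pdlim7 by 0.10. The cause of these was not tested.

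The replicate number as a block changed no call: 34, 34 and 0 members. Deviations from the group means correlated at -0.199 to 0.225 between same-numbered arrays and at -0.237 to 0.208 between others. With 3 arrays per group, this cannot decide whether the numbers pair any arrays. All arrays but sham replicate 3 lay on slide 1, so slide as a block equals leaving that array out. All CaCl2 arrays were in row 1 of slide 1, and the only sham array in a row 1 was that of slide 2. Each CaCl2 array therefore differs from each sham array in row or in slide. On slide 1, only the CaCl2 plus IgG group lay in both rows. The fit with row as a block had no slide term, so the sham arrays, across slides, also tie its rows together. Within row 1 the members' median was -1.94 in CaCl2 minus sham (3 arrays against 1) and -2.05 in CaCl2 plus IgG minus sham (1 against 1), and in row 2 -1.71 in CaCl2 plus IgG minus sham (2 against 2).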
